A study of Mus musculus with 4 samples.

Results

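The AP-1 proteins and their partners in T cells were described here through 9 genes, chosen by name out of 50600 annotated genes. They comprised the JUN genes Jund, Junb and Jun, the FOS genes Fos and Fosl2, the BATF genes Batf and Batf3, the interferon regulatory factor gene Irf4, and Gm11175, an antisense gene annotated inside the coding sequence of Jund. RNA was sequenced from T-helper 2 (Th2) cells, the CD4 T cells that make interleukins 4, 5 and 13, in 4 libraries that form a single group, with no control or treated group beside it. Mice of the strain C57BL/6NJ provided the primary cells, with age and sex not given. The labels name a differentiation protocol for CD4 T cells but no agent or dose, and 72 h is written in each file's header without a statement of what it times. The labels number the libraries as biological replicates 1 to 4 with separate biosamples but with the same donor. The p-values below therefore rest only on the spread between these libraries, and part of that spread may be technical.

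AP-1 is a dimer of basic leucine zipper proteins, classically a JUN protein with a FOS protein, that binds a short palindromic DNA element and is induced within minutes of T cell receptor signalling. BATF proteins have a zipper but no transactivation domain of their own, pair with JUN proteins in place of FOS, and bind together with IRF4 at composite elements that hold an AP-1 site beside an interferon regulatory factor site. In T cells, BATF and IRF4 are known to be required for the differentiation of several helper subsets, Th2 cells among them.

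The libraries of replicates 1, 3 and 4 held 2388255, 1929880 and 1713199 gene counts, whereas replicate 2 held 5016, where a level under 598 CPM (counts scaled to library size) fell below the floor of 3 counts. Values below are from replicates 1, 3 and 4 unless replicate 2 is named. Of the gene counts in these 3 libraries, 90.7%, 94.2% and 91.3% lay on genes whose exons overlap an exon on the other strand, although 8189 of 50600 genes (16.2%) have such exons. All 7 T cell markers (Cd3e, Cd3g, Cd2, Cd5, Trac, Cd4 and Thy1) and all 6 Th2 markers (Gata3, Il4, Il5, Il13, Ccr4 and Ptgdr2) passed the test for a level above 1 TPM, a measure of level that corrects for exonic length and library size. A pass was common, at 62.9% of the 10670 genes tested, and was also reached by Cd79a and Csf1r, named below. Of the markers that passed, Cd3e, Gata3, Il5 and Ptgdr2 have exons opposite another gene, as Csf1r does. The T cell markers summed to 123, 40.0 and 131 TPM in replicates 1, 3 and 4. Of cells that could also carry Irf4 or Batf3, the B cell markers Ms4a1, Cd79b and Pax5 were at 0 counts, while Cd79a had 2.05 to 9.84 TPM. The dendritic cell markers Flt3, Clec9a, Itgax and Siglech were at 0, while Xcr1 had 14, 4 and 11 counts and Zbtb46 had 3, 6 and 1, and the list of 6 summed to 1.17 to 2.18 TPM. The macrophage markers Itgam, Adgre1 and S100a8 were at 0, while the list of 6 summed to 138 to 156 TPM, nearly all of it from Csf1r, which lies opposite Hmgxb3. The cytotoxic T and NK list summed to 0 to 3.52 TPM, with Prf1, Ncr1 and Klrb1c of its 6 genes at 0.

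The sequence at the Jund locus is shown first because the largest count among the 9 genes fell on the strand opposite to Jund. Jund (ENSMUSG00000071076.6) is a gene of 1 exon at chr8:70698949-70700616 on the plus strand of mm10, 1668 bases long. Gm11175 (ENSMUSG00000080058.2) covers 877 exonic bases at chr8:70699162-70700080 on the minus strand, in exon blocks of 334 and 543 bases. Every exonic base of Gm11175 lay inside the 1023-base coding sequence of Jund, and together they covered 85.7% of it. The 5′ end of Gm11175 directly abuts the stop codon of Jund. The annotated transcripts of Gm11175, of 408 and 543 bases, were each identical over 100% of their length to the reverse complement of the Jund transcript (GENCODE vM21). The last coding bases of Jund, with the stop codon in capitals, and the first bases of Gm11175 across the same stretch, were as follows, at chr8:70700021-70700083 and chr8:70700021-70700080 in mm10:
Jund, plus strand: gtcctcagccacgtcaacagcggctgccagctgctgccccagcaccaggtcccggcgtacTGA
Gm11175, minus strand: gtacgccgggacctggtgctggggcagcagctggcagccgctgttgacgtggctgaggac

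The shorter Gm11175 transcript is annotated with an intron of 120 bases at chr8:70699496-70699615 on the minus strand. It is shown because a GT and an AG at its ends, in capitals, are the bases a spliced antisense transcript would need, and the deposited gene counts do not tell spliced from unspliced fragments:
Gm11175 intron, minus strand: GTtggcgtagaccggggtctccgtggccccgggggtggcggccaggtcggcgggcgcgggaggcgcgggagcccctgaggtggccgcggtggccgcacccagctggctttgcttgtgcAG

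Counts at this locus fell almost entirely on the minus strand. Jund had 161, 63 and 54 counts in replicates 1, 3 and 4, against 27193, 16409 and 14892 for Gm11175. Per kilobase of exon (kb) this was 96.5, 37.8 and 32.4 counts for Jund, against 31007, 18710.4 and 16981 for Gm11175. The strands did not come near each other in any library, and Jund stood at 0.311%, 0.202% and 0.191% of the density of Gm11175. The mean log2 ratio of Jund over Gm11175 was -8.76 ± 0.38 (SD, n = 3), with the same direction in 3 of 3 libraries, and a sign-flip permutation test (exact, two-sided) gave p = 0.25, the smallest that 3 libraries allow. Pooled over the libraries, Gm11175 was 400.2-fold denser than Jund (95% interval for counting error, 356 to 452). The next genes on the plus strand, Iqcn and Gm3336, had 0 counts. The labels used here do not give the library kit or its strandedness, so whether strand setting 1 fits the kit is not known, and which strand the RNA behind these counts came from was not tested. That limit holds for every level given here, both for genes that face another gene and for genes that do not. Genes without opposite exons took 9.26%, 5.78% and 8.67% of the gene counts in replicates 1, 3 and 4.

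As a share of all gene counts, Gm11175 took 1.14% of replicate 1, with a Wilson 95% interval of 1.13% to 1.15%. Its share was 0.850% of replicate 3 (0.837% to 0.863%), close to the 0.869% of replicate 4 (0.855% to 0.883%). It ranked 6, 9 and 7 among all genes by count in these libraries. The intervals do not overlap between replicate 1 and the others, and cover counting error only, because no molecular identifiers mark which fragments come from separate molecules. Jund, whose protein is the most broadly expressed of the JUN family, took 0.00674%, 0.00326% and 0.00315% of the counts. Jund is one of many genes with such a neighbour: among 164 pairs of a coding gene and an opposite-strand gene nested almost wholly in its exons, the outer gene was the less dense one in all 3 libraries in 148 (90.2%). The outer gene reached a median of 0.283%, 0.135% and 0.267% of the density of the inner one in replicates 1, 3 and 4, so Jund lay near the middle of these pairs, with 86, 93 and 66 of the 164 below it.

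**Figure D1:**
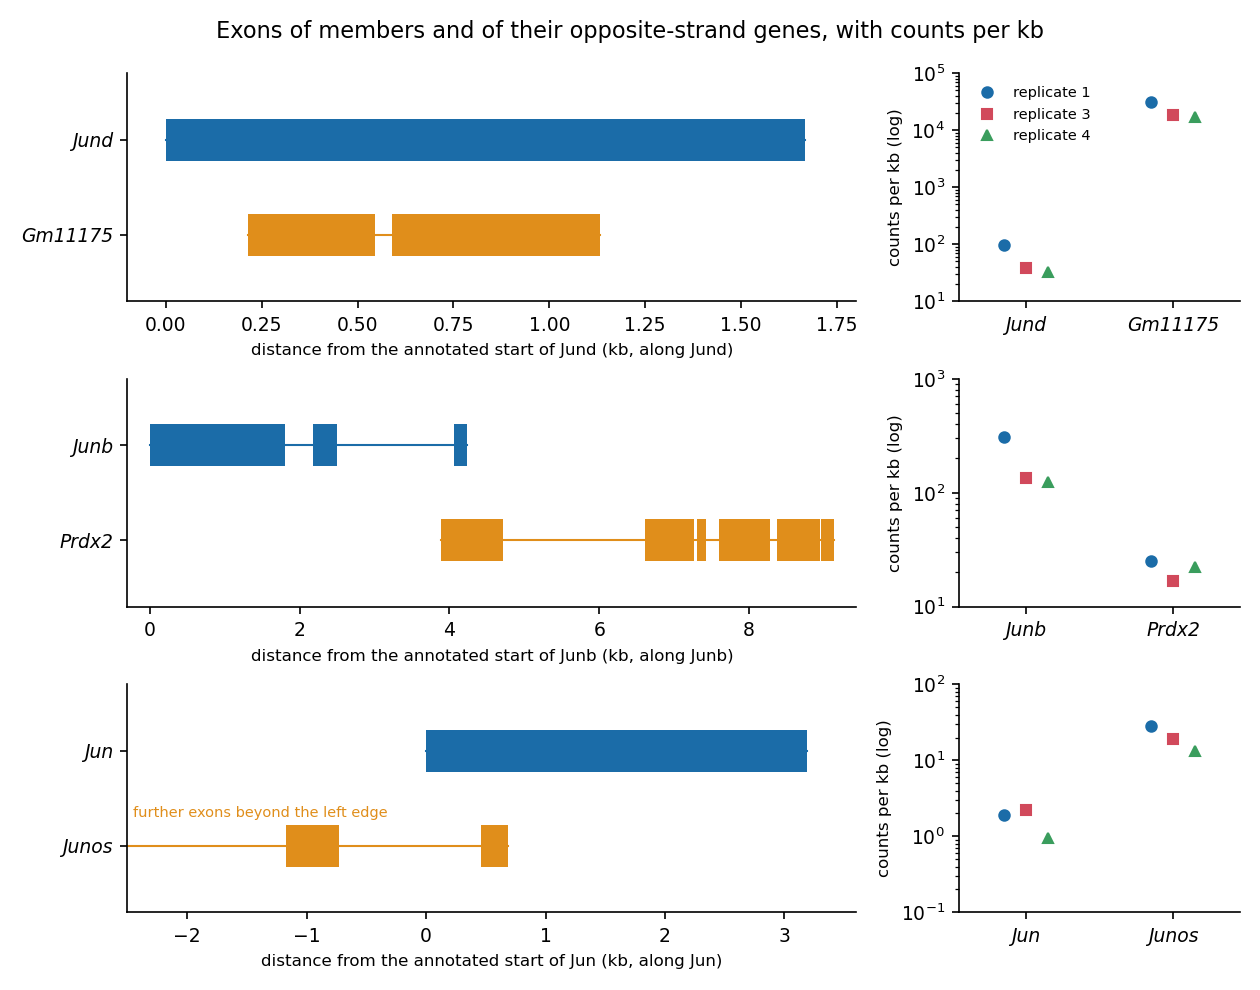
Exons and counts per kb (log axis) at the 3 loci where a member has exons opposite another gene: Jund with Gm11175, Junb with Prdx2 and Jun with Junos. Position is given as distance from the member's start, and points are replicates 1, 3 and 4; Jund lies far below Gm11175 in every library, Junb above Prdx2 and Jun below Junos.

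Junb, a JUN protein that pairs with BATF in T cells, was the densest of the coding members by mean level. Junb (ENSMUSG00000052837.6, chr8:84974484-84978718, minus strand, 2301 exonic bases) had 709, 307 and 285 counts, which is 184, 97.4 and 104 TPM in replicates 1, 3 and 4 (129 ± 48.4 TPM, SD, n = 3). Replicate 1 was high and the other libraries lay close together. Prdx2, a peroxiredoxin gene on the plus strand, shares 173 bases with the last exon block of Junb. Junb had 308, 133 and 124 counts per kb, against 25.2, 16.7 and 22.3 for Prdx2, and was the denser gene in 3 of 3 libraries. The log2 ratio of Junb over Prdx2 averaged 3.02 ± 0.57 (SD, n = 3; exact two-sided sign-flip p = 0.25), and the pooled ratio was 8.80 (95% counting interval, 7.57 to 10.3). Of the 3 pairs with opposite exons this was the only one in which the AP-1 gene was the denser one. The strand of Junb also carried Rnaseh2a, a ribonuclease H2 subunit gene 4717 bases beyond Junb, with 1153, 1145 and 753 counts per kb. Rnaseh2a ends at chr8:84969767, past the start of Prdx2 at chr8:84969587, so it lies opposite Prdx2 as well. Of the exonic bases of Prdx2, 350 face exons on the other strand, 173 of them in Junb.

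Jun, which encodes c-Jun, the founding AP-1 subunit, was close to the limit of detection. Jun (ENSMUSG00000052684.4, chr4:95049034-95052222, minus strand, a single exon of 3189 bases) had 6, 7 and 3 counts in replicates 1, 3 and 4. These are 1.13, 1.60 and 0.793 TPM, and the pooled level was 1.19 TPM (exact Poisson 95% interval, 0.679 to 1.93). Junos, an antisense gene with 115, 79 and 55 counts, starts inside Jun and shares 232 bases with it. Per kb Jun had 1.88, 2.20 and 0.941 counts, against 27.9, 19.2 and 13.4 for Junos. The ranges did not overlap, and the log2 ratio of Jun over Junos averaged -3.48 ± 0.39 (SD, n = 3; exact two-sided sign-flip p = 0.25). Pooled, Jun had 0.0830 of the density of Junos (95% counting interval, 0.0467 to 0.137). Over these 3 pairs the adjusted p was 0.25 for each (exact sign-flip permutation test).

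The remaining members, Fos, Fosl2, Batf, Batf3 and Irf4, have no annotated gene on the other strand over their exons, nor over their introns in the later annotation GENCODE vM21. Fos, the founding partner of c-Jun and an immediate early gene, had 2, 3 and 1 counts over 2352 exonic bases (ENSMUSG00000021250.13, chr12:85473890-85477273, plus strand). Its pooled level of 0.604 TPM (exact Poisson 95% interval, 0.222 to 1.31) was the lowest of the 9, and its 6 counts in all were too few for the test of level. Fosl2, which encodes the FOS-related protein FRA-2, had 47, 34 and 30 counts over 9680 bases (ENSMUSG00000029135.10, chr5:32135801-32157842, plus strand). At 2.91, 2.56 and 2.61 TPM it was the steadiest member (2.69 ± 0.185 TPM, SD, n = 3), with 1.13-fold between its highest and lowest library. Fos was lower than Fosl2 in 3 of 3 libraries, at a pooled ratio of 0.222 (95% counting interval, 0.0799 to 0.50).

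Batf and Batf3 encode short zipper proteins that pair with JUN proteins, and Batf3 is best known from classical dendritic cells. Batf (ENSMUSG00000034266.5, chr12:85686669-85709087, plus strand, 955 exonic bases) had 92, 25 and 38 counts in replicates 1, 3 and 4. Its levels of 57.7, 19.1 and 33.6 TPM (36.8 ± 19.5 TPM, SD, n = 3) spread over 3.02-fold, the widest range of the 9 genes, high in replicate 1 and low in replicate 3. Batf3 (ENSMUSG00000026630.9, chr1:191097847-191108945, plus strand, 1597 exonic bases) had 32, 16 and 17 counts and levels of 12.0, 7.31 and 8.98 TPM (9.43 ± 2.37 TPM, SD, n = 3). Batf was denser than Batf3 in 3 of 3 libraries, at a pooled ratio of 3.99 (95% counting interval, 2.97 to 5.41). Batf lies 209 kb beyond Fos on chromosome 12, and Jdp2, the gene of a repressive AP-1 partner that stands between them, had 8, 5 and 1 counts (1.64 ± 1.08 TPM, SD, n = 3).

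Irf4, the DNA-binding partner of BATF and JUN at composite elements, had 722, 648 and 629 counts over 9 exons and 4715 bases (ENSMUSG00000021356.9, chr13:30749226-30766927, plus strand). Its levels were 91.7, 100.3 and 112.5 TPM (101.5 ± 10.5 TPM, SD, n = 3). The libraries lay close together, and replicate 1, where Batf, Batf3, Jund and Junb had their highest level, had the lowest of Irf4. Irf8, its nearest relative in sequence, had 8, 1 and 7 counts, and the pooled ratio of Irf4 over Irf8 was 187 (95% counting interval, 115 to 328). The mean log2 ratio of 7.77 was 6.98 without replicate 3, where Irf8 had its single count. Batf stood below Irf4 in every library, with log2 ratios of -0.66, -2.36 and -1.73 in replicates 1, 3 and 4 and a pooled ratio of 0.383 (0.323 to 0.451). Batf3 stood at 0.0960 of Irf4 (0.0738 to 0.123).

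**Figure D2:**
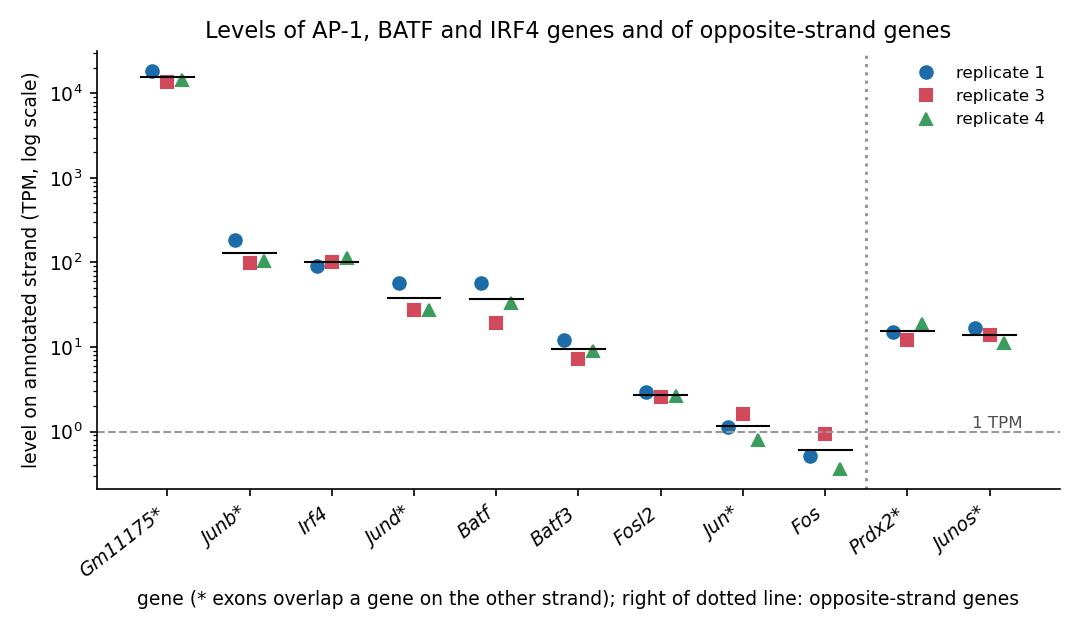
Level of the 9 members and of their opposite-strand genes in TPM (log axis), with a point for each of replicates 1, 3 and 4 and a bar at their mean. Gm11175 lies between 13656 and 18562 TPM, Irf4 and Junb near 100 TPM, and Jun and Fos near 1 TPM.

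Set in order by mean TPM on the strand counted, Gm11175 came first and was followed by Junb, Irf4, Jund, Batf, Batf3, Fosl2, Jun and Fos. Neighbours in this order whose ranges overlapped were Junb with Irf4, Jund with Batf, and Jun with Fos. Junb exceeded Irf4 in 1 of 3 libraries, Jund exceeded Batf in 2 of 3, and Jun exceeded Fos in 3 of 3. All other neighbours were separated in every library, by 2.30-fold to 120-fold between their means. Among the JUN genes, Jund was lower than Junb in 3 of 3 libraries with log2 ratios of -1.67, -1.81 and -1.93 (pooled ratio 0.295, 95% counting interval 0.258 to 0.336). Their mean was -1.80 over the full exonic length. It was -0.84 when only bases free of another gene were taken as length. Counts from the shared bases stayed in that value, so it is not a density over free bases. Jun was lower than Junb in 3 of 3 libraries as well, at a pooled ratio of 0.00887 (0.00506 to 0.0145). Fos and Jun could not be told apart by counting error, with a pooled ratio of 0.508 (0.163 to 1.37). All 12 preset pairs kept the same direction in 3 of 3 libraries, and each had an exact two-sided sign-flip p of 0.25 and an adjusted p of 0.25.

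Against a level of 1 TPM, 7 of the 8 members with at least 10 counts were higher (edgeR quasi-likelihood test, Benjamini-Hochberg adjustment over 10670 genes). Of all genes tested, 62.9% were called above 1 TPM and 2.97% below it, so a call of this kind was common. The adjusted p was 4.84e-21 for Gm11175, 2.66e-15 for Irf4, 1.19e-12 for Junb, 1.67e-09 for Jund, 2.12e-08 for Batf, 4.19e-06 for Batf3 and 2.68e-04 for Fosl2 (edgeR). Jun was not separable from 1 TPM (adjusted p = 0.681, edgeR). In bulk RNA, a low level in all cells and a high level in few cells cannot be told apart, nor can fewer cells and less RNA per cell.

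The place of a member among all genes depended on which genes it was set against. Nuclear protein-coding genes with exons on the other strand had a median of 1.61 TPM (4798 genes), and those without had 0.0501 TPM (16953 genes). Irf4 lay at percentile 98.3 of all protein-coding genes and at 99.8 of those without opposite exons. Batf lay at 96.3 and 99.3, Batf3 at 91.5 and 96.5, Fosl2 at 81.4 and 88.2, and Fos at 62.3 and 69.6 on the same measures. Members with opposite exons moved the other way. Junb lay at percentile 98.6 of all protein-coding genes but at 94.0 of those with opposite exons, Jund at 96.3 and 85.8, and Jun at 71.0 and 45.6. These places also moved with the definition of the classes. When at least 10% of the exonic bases had to be shared, Junb and Jun fell among the genes without opposite exons, at percentiles 99.5 and 74.2, and Jund lay at 75.3 of the genes with them. All of these percentiles include genes without a count. Under the first definition, 82.6% of the genes with opposite exons and 51.8% of those without had a count. Among these, Irf4 lay at percentile 99.6 of its class, Batf at 98.6, Batf3 at 93.3, Fosl2 at 77.2 and Fos at 41.3. Junb lay at 92.8, Jund at 82.8 and Jun at 34.2.

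**Figure D3:**
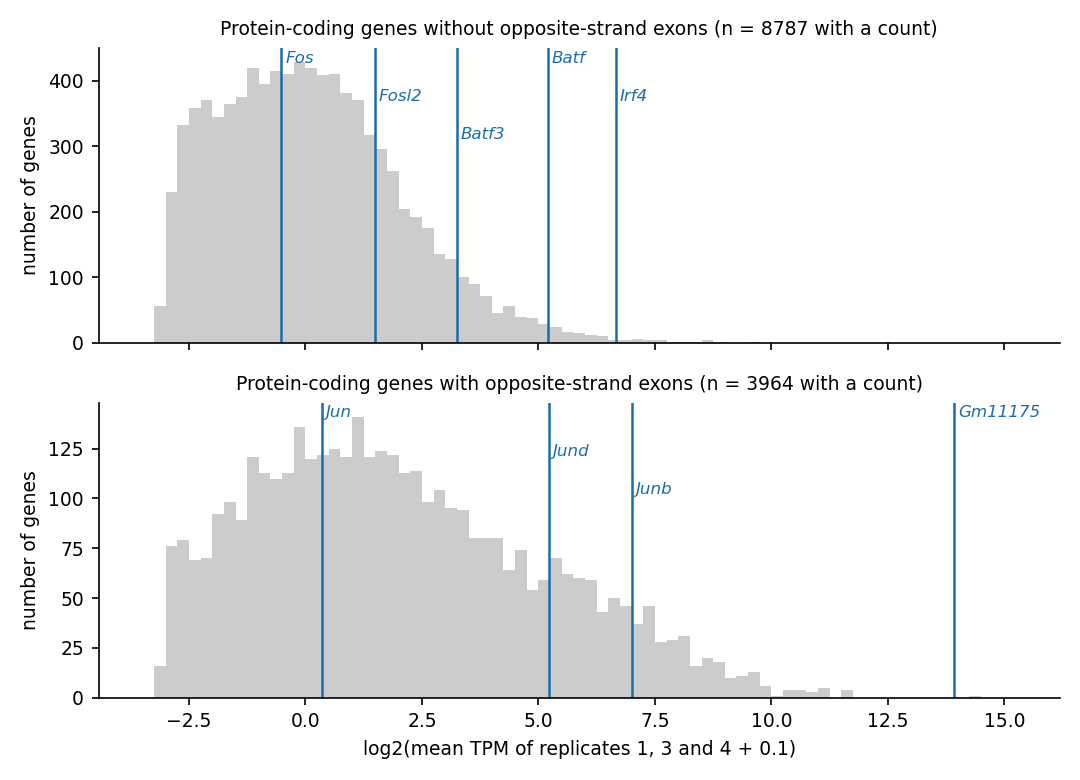
Histograms of log2(mean TPM + 0.1) over nuclear protein-coding genes with and without exons on the other strand, with the members marked in their own class. Only genes with a count are drawn, 3964 with opposite exons and 8787 without. Gm11175 is an antisense gene and is marked beside the genes with opposite exons for reference only; Irf4 and Batf stand in the upper tail of the genes without.

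The libraries differed from each other, and replicate 3 most. With each library set against the other 2 (edgeR quasi-likelihood test, TMM scaling, 6922 genes with a mean count of at least 10), replicate 1 had 2 called genes (0.0289%), replicate 3 had 1051 (15.2%) and replicate 4 had 3 (0.0433%). In replicate 3, 858 genes (12.4%) were lower. Of the 7 members tested, Batf was called lower in replicate 3, with 25 counts there against 92 and 38 in replicates 1 and 4 (log2 fold change -1.11, SE 0.40, adjusted p = 0.0417, edgeR). Under all 5 other settings this call was lost, with adjusted p between 0.0917 and 0.642. The log2 fold change stayed between -1.06 and -0.99 in 4 of them and was -0.27 with scaling on genes without opposite exons. The T cell markers were lower in that library too, as given above, with Cd4 at 124, 37 and 78 counts and Trac at 26, 6 and 30 counts in replicates 1, 3 and 4; their part in the value of Batf was not tested.

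Irf4 stayed nearly flat in replicate 3, where the genes of its own class were mostly lower. The 2824 protein-coding genes without opposite exons that had enough counts shifted by a median log2 of -0.98 in replicate 3 relative to the other libraries, while the 2424 with opposite exons shifted by -0.13. Irf4 shifted by -0.02 and lay at percentile 87.7 of its class, Fosl2 by -0.10 (percentile 85.1), Batf3 by -0.50 (72.0) and Batf by -1.20 (39.7). When libraries were scaled on genes without opposite exons alone, the median of all tested genes in replicate 3 moved to a log2 of 0.72. On that scale Irf4 (log2 0.98, adjusted p = 4.93e-05, edgeR) and Gm11175 (log2 0.74, adjusted p = 5.74e-06, edgeR) were called higher in replicate 3, where 40.6% of all genes were called higher, and Jund, Junb and Batf3 turned from lower to higher without a call. Relative to that median of 0.72, Gm11175 was at the shift of all genes.

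Jund and Junb were highest in replicate 1, by a log2 of 0.98 (SE 0.42) and 0.78 (SE 0.24) against the other libraries. Neither passed adjustment over all genes (adjusted p = 1.00 for each, edgeR; unadjusted p = 0.0306 and 0.00467). Under the 5 other settings the unadjusted p was 0.067 to 0.67 for Jund and 0.053 to 0.86 for Junb. Relative to other genes with opposite exons, Jund lay at percentile 95.8 and Junb at 91.0 of the shift of replicate 1, and Gm11175 at 73.4.

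**Figure D4:**
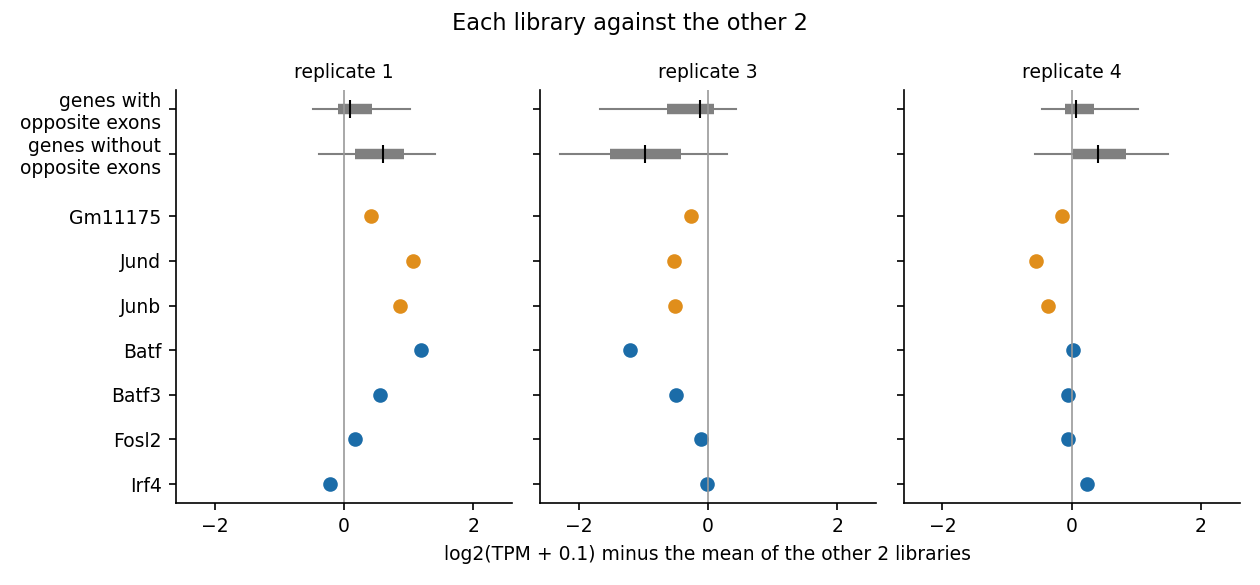
Log2 shift of each member in a library relative to the mean of the others, for replicates 1, 3 and 4. Orange points have exons on the other strand and blue points do not; grey bars span the quartiles of protein-coding genes of the same class, thin lines the 5th to 95th percentile, and ticks the median. In replicate 3, Irf4 stays near 0 while genes without opposite exons have a median of -0.98; in the edgeR fit scaled on that class the values of Jund, Junb and Batf3 in replicate 3 change sign from negative to positive.

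By a rule of nearest level over the 3 libraries, the protein-coding genes most like each member in log2(TPM + 0.1) were Ybx3 for Jund (distance 0.156), Rpl29 for Junb (0.215), Pask for Fosl2 (0.113), Rpl13 for Batf (0.206), Ap3b1 for Batf3 (0.134), Nt5m for Irf4 (0.0934) and Gm20721 for Gm11175 (0.827). Such likeness over 3 libraries is a description of level only. Ybx3 had 63.5, 27.3 and 28.8 TPM in replicates 1, 3 and 4, close to the 57.8, 27.6 and 27.3 TPM of Jund.

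Among 8 other genes of the AP-1 family, 4 of the 7 tested were above 1 TPM (edgeR), against the 62.9% above over all genes. Batf2 had the highest level, a mean of 51.3 TPM, and shares 51 bases with Arl2 on the other strand, which had 9, 2 and 5 counts. Atf4, the effector of the integrated stress response, averaged 26.5 ± 13.1 TPM, Fosl1, the gene of FRA-1, 11.1 ± 1.50 TPM and the stress-induced Atf3 8.15 ± 2.70 TPM (SD, n = 3 each). The level of Fosl1 was thus above that of Fosl2 and Fos. The median of the 8 listed genes was 4.89 TPM, against 0.172 TPM over all 21751 nuclear protein-coding genes, 9000 of them without a count. The 7 tested genes had a median of 8.15 TPM, against 3.52 TPM over all tested genes. The MAF and BACH proteins, which bind extended AP-1 elements, had 3 of 5 tested above 1 TPM, led by Maff at 47.6 ± 6.35 TPM, with a list median of 1.06 TPM. Mafg averaged 2.10 TPM, Mafk 1.06 TPM and Bach2, a repressor that competes for AP-1 sites, 2.03 TPM. Opposite Bach2, the antisense Bach2os had 2046, 1703 and 1434 counts. Mafk shares 169 bases with Tmem184a, which had 179, 135 and 121 counts.

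On a list of 9 genes, the 8 other interferon regulatory factor genes measured and Irf2bp2, the gene of a corepressor that binds IRF2, 2 were above 1 TPM, namely Irf5 and Irf2bp2. Over all genes tested the share above 1 TPM was 62.9%. Irf5 averaged 521 ± 34.0 TPM (SD, n = 3), above Irf4, and shares 411 bases with Tnpo3 on the other strand, which had 69, 29 and 29 counts. Irf2bp2 averaged 2.26 TPM, Irf1 2.04 TPM and Irf7 1.93 TPM, and all 3 have opposite exons. The list median was 1.47 TPM.

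Of the NFAT and NF-kB genes, whose proteins bind beside AP-1 at cytokine genes, 5 of 9 were above 1 TPM. The share over all genes tested was 62.9%, and the list median was 1.93 TPM. Nfkb2 averaged 28.6 TPM and shares 4 bases with Psd, which had 2455, 1686 and 1715 counts. Nfkb1 averaged 5.66 TPM, Rel 2.62 TPM and Nfatc3 1.95 TPM. Nfatc3 shares 219 bases with Esrp2, which had 289, 212 and 174 counts. Of the kinases and factors that activate AP-1, 6 of 9 tested were above 1 TPM, against the same 62.9%. The median over the list of 12 was 1.77 TPM. Srf, the factor that drives Fos, averaged 2.84 TPM and Map2k1 2.74 TPM, both without opposite exons.

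Other immediate early genes were measured alongside Fos and Jun, since all are induced by the same signals. Of 13 genes, 12 were tested and 9 were above 1 TPM, against 62.9% of all genes tested. None of the 9 has opposite exons, and the list median was 3.49 TPM. Dusp2, a phosphatase of MAP kinases, had 107, 84 and 73 counts (31.1 ± 0.756 TPM, SD, n = 3), Ier2 averaged 14.5 TPM, Myc 13.4 TPM and Ier5 6.09 TPM. These were named as the 4 highest of the list, and each stood above the 0.604 TPM of Fos and the 1.19 TPM of Jun. The lowest of the 13 averaged 0.715 TPM, below Jun.

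Genes known to depend on BATF or IRF4 in T cells were counted on a list of 12. All 9 that could be tested were above 1 TPM, 5 of them without opposite exons, against 62.9% above over all tested genes. The other 3 had too few counts for the test, so the lowest genes of the list did not enter it. The median of the 12 was 6.56 TPM, against the 0.172 TPM of all protein-coding genes, 9000 of which had no count. The 9 tested genes had a median of 9.69 TPM, against 3.52 TPM over all tested genes. Il21 averaged 227 ± 79.4 TPM (SD, n = 3) and shares 469 bases with Gm12534. Il4 averaged 40.0 ± 7.95 TPM, the inhibitory receptor gene Ctla4 26.4 ± 14.3 TPM and the transcription factor gene Bhlhe40 12.0 ± 6.84 TPM (SD, n = 3 each). Bhlhe40 shares 118 bases with 0610040F04Rik, which had 4571, 3833 and 3139 counts. Il4 and Il21 had their highest counts in replicate 3, with 65, 80 and 59 counts for Il4 and 1574, 2297 and 1143 for Il21 in replicates 1, 3 and 4. Ctla4, with 109, 36 and 110 counts, and Bhlhe40, with 141, 29 and 75, were lowest there. Il17a, which marks another helper subset, and Prdm1, the gene of BLIMP-1, had 0 counts in all 3 libraries, which lies under the floor of 3 counts.

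Promoters of 8 members, all but Gm11175, were searched in RefSeq windows of GRCm38.p6, from 250 bases before to 50 after the start, on both strands. The AP-1 element TGANTCA was in none of the 8, against 7.81% of 32851 windows, and the cyclic AMP element TGACGTCA was in none, against 1.79%. The composite elements of AP-1 with an interferon regulatory factor site, in their adjacent form (0.12% of windows) and spaced form (0.119%), both of which contain the AP-1 element, were also absent from all 8. The variant TGACATCA, found in 3.62% of windows, was in the Jun window at -45 from the start. It is shown, in capitals, because it was the only match among the members, at chr4:95052250-95052277 on the minus strand:
Jun promoter, minus strand: agcctcggggTGACATCAtgggctattt

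A match of letters is not a measured site. The RefSeq start of Jund lies 1210 bases upstream of the start used for counting, so fragments from that stretch were not counted for Jund, while the starts of Jun and Fos are identical in both annotations.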

How the data were processed

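The deposited values were whole fragment counts per gene, made by the authors with featureCounts 1.4.6-p4 on the exons of GENCODE vM13, per the file headers. The headers record strand setting 1, in which read 1 must lie on the gene's own strand, and a requirement that both mates map. The strandedness of the library kit is not given in the labels. STAR is named there as the aligner, without a version. The assay is labelled total RNA sequencing, but the protocol document cited is named for poly(A)-selected RNA. Coordinates are those of mm10.

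TPM was computed from counts and exonic lengths with Python 3.11.15, and opposite-strand exons (at least 1 shared base) were found with bedtools 2.31.1. Levels were tested against 1 TPM, and each library against the other 2, with the quasi-likelihood test of edgeR 4.0.16 in R 4.3.3, over all genes with at least 10 counts in sum or a mean count of at least 10, with Benjamini-Hochberg adjustment at 0.05. The spread of the single library is there taken from the other 2, so that test contrasts libraries and not conditions. A pseudocount of 0.5 counts entered log2 ratios. DESeq2 1.42.0 and limma 3.58.1 were alternatives. Nested pairs had at least 90% of the inner gene's exonic bases inside the outer gene and 300 or more counts together. Library shifts used genes with 30 or more counts. The tests were tested on simulated data.

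Named genes were all members, their opposite-strand and paired genes, up to 4 genes of each pathway list by mean TPM, the nearest gene by level for members with at least 30 counts, and neighbours within 20 kb. A few genes that this rule or the marker lists hold are not reported here. Markers, Il17a and Prdm1 were named after their values were seen. The members and lists were chosen with earlier results of these data known.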

Additional observations from a re-analysis of the deposited data

Results flagged for a closer look

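Replicate 2, which entered only the alternatives, held 21 counts of Gm11175, which is 0.419% of its 5016 gene counts (Wilson 95% interval, 0.274% to 0.639%) and above the floor of 3 counts. The other 8 members had 0 counts there. Gm11175 ranked 14 among all genes by count in that library. Replicates 1, 3 and 4 held 1.14%, 0.850% and 0.869%.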

How the results depend on the processing

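No paired analysis was possible because the series has a single group. The number of members above 1 TPM was 7, and 7 to 7 when replicates 1, 3 and 4 were left out in turn, and 8 when TPM was scaled to genes without opposite-strand exons, where Jun was called (log2 4.21, adjusted p = 8.10e-12, edgeR) but so were 10666 of 10670 genes (100%). The number of members called apart in a library was 1, but 0 with DESeq2 size factors, with DESeq2, without a filter and with replicate 2 (1, 0, 1 and 1 members at an unadjusted p under 0.05), and 2 with TMM on genes without opposite exons. Calls over all genes in replicate 3 were 1051, but 591 with DESeq2 size factors in edgeR, 56 of 3433 genes with DESeq2, 789 without a filter, 859 with replicate 2 and 2927 with scaling on genes without opposite exons. Under that scaling the sign turned for Jund in replicate 3 (0.36), Junb in replicate 3 (0.43), Batf3 in replicate 3 (0.46), Gm11175 in replicates 1 (-0.20) and 3 (0.74), Fosl2 in replicate 1 (-0.43) and Irf4 in replicate 4 (-0.34). Gm11175 in replicate 3 also turned with DESeq2 size factors and with DESeq2 (0.0053 for each) and with replicate 2 (0.36), as did Gm11175 in replicate 4 with replicate 2 (0.19) and Fosl2 in replicate 1 with DESeq2 size factors (-0.0060) and with DESeq2 (-0.0061). With 10% of exonic bases as the overlap, Irf4 lay at percentile 99.4 in place of 99.8 of its class. All 17 alternative values of a member over its opposite-strand gene and all 71 of the preset pairs kept their direction. With a library left out this was fixed in advance, because each pair had the same direction in every library. Adding replicate 2, where every member but Gm11175 had 0 counts, moved 3 of 3 and 9 of 12 of these ratios by over 1.5 times. Leaving out replicate 3 moved Irf4 over Irf8 (6.98 against 7.77, log2) and Fos over Batf (-6.25 against -5.55). Taking free bases as length, with all counts kept, moved Jund over Junb (-0.84 against -1.80) and Jun over Jund (-5.79 against -4.83). Gm11175 has no base free of Jund, so its ratio with free bases as length was not formed. Leaving out a library in the test of single libraries leaves 1 against 1 and gave no test. The cause of these changes was not tested. Replicate 2, at 5016 counts, could show only levels above 598 CPM.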
